A study of Mus musculus with 2 samples.

Results

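Immediate early genes are genes whose transcription starts within minutes of a stimulus, without the need for newly made protein. Here 10 of them, chosen by name, were followed in cells dissociated from mouse sympathetic ganglia. They are Fos, Fosb, Jun, Junb, Jund, Egr1, Nr4a1, Ier2, Btg2 and Zfp36, and they are 10 of the 32183 genes in the deposited tables. The rule that picked them was their names and no measured value, though earlier results of these data were known when it was made. Both libraries belong to 1 group, dissected celiac and superior mesenteric ganglia, whose noradrenergic neurons supply the abdominal organs. The series text names 20 mice of both sexes in equal number, aged 7 to 8 weeks, and gives no strain, allele or treatment. The ganglia were digested with enzymes and triturated before capture, and libraries were made with 10x Genomics 3' chemistry. No undissociated tissue was measured, so a level present in the animal and a level reached during dissociation cannot be told apart.

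Signals that reach the cell surface activate the MAP kinases and the cAMP pathway. These act on serum response factor, which binds the CArG box together with Elk factors, and on CREB, which binds sites with the core TGACG. Early genes are transcribed from such promoters, and their messages are short-lived because AU-rich elements in the 3' UTR recruit decay factors. Digestion and trituration of tissue are known to raise these genes in many cell types, and in sympathetic neurons electrical activity does so too. Fos and Fosb encode proteins that pair with Jun, Junb or Jund to form the transcription factor AP-1. Egr1 encodes a zinc finger transcription factor and Nr4a1 an orphan nuclear receptor. Ier2 encodes a nuclear protein of the early response. Btg2 encodes an antiproliferative protein that binds the CCR4-NOT deadenylase. Zfp36, also called tristetraprolin, binds AU-rich elements and speeds the decay of the messages that carry them.

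The promoters of 3 members are printed here because they hold between them each kind of regulatory word searched that any member had. They are the 250 bases before the RefSeq start of the gene (GRCm38.p6), 5' to 3' on the strand of the gene. Capitals mark matches to TGACG, to GCGNGGGCG (the site of Egr-type zinc fingers), to TATAAA or to a CArG box. All of these, TATAAA included, and TGANTCA were searched on both strands, and a match on the other strand is in capitals as its reverse complement. The Fos window is chr12:85473640-85473889 on the plus strand, that of Nr4a1 is chr15:101266596-101266845 on the plus strand, and that of Zfp36 is chr7:28379229-28379478 on the minus strand.
Fos: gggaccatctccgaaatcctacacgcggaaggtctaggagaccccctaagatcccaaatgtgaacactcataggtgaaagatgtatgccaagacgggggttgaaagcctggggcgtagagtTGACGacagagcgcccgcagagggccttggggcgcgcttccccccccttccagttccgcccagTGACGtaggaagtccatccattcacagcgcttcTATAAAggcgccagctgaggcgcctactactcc
Nr4a1: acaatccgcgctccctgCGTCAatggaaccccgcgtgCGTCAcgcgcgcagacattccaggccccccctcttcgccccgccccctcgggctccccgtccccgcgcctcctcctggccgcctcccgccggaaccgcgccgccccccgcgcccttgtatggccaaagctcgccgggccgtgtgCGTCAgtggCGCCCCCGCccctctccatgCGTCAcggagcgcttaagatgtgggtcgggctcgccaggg
Zfp36: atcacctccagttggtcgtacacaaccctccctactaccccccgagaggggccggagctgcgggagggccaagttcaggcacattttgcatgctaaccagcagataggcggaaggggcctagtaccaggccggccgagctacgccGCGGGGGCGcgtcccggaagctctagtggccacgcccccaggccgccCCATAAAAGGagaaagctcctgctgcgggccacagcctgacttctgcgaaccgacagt

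Of the 10 members, 8 had a RefSeq promoter to search, and Egr1 and Ier2 had none. TGACG was found in 5 of these 8 (Fos, Fosb, Junb, Btg2 and Nr4a1), against 17.87% of the 27018 promoters of that length. GCGNGGGCG was found in 4 (Fosb, Btg2, Nr4a1 and Zfp36), against 4.65% of all promoters. A CArG box was found in Zfp36 alone, against 1.4% of all promoters, and TATAAA in Fos alone, against 12.97%. The AP-1 word TGANTCA was in none of the 8 windows and in 6.87% of all. The matches are letters in a window and not measured sites, and a window without a match says nothing of more distant elements. The windows of Nr4a1 and Zfp36 lie inside the spans of these genes in GENCODE M21 (chr15:101254269-101274795 for Nr4a1). That of Jund ends at chr8:70697738, before its GENCODE start at 70698949. For these members a match, or its absence, holds for the RefSeq start only.

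The 3' UTRs were searched for TATTTAT, the core that Zfp36 binds. It was present in 6 of the 10 members (Fos, Fosb, Jun, Jund, Btg2 and Zfp36), against 25.48% of the 20620 genes with an annotated 3' UTR in GENCODE M21 (GRCm38). Among the 9146 genes whose 3' UTR was as long as those of the members, 27.27% held it. Zfp36 carried 3 matches in its own 3' UTR and Fos carried 2. A match of each, with the flanking bases and the core in capitals, reads as follows.
Fos: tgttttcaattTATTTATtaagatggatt
Zfp36: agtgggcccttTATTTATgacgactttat
The members were also compact genes. Their median span was 3710.5 bases with 2 exons, against 17373.5 bases and 7 exons over all these genes. Fos spans chr12:85473890-85477273 with 4 exons, Zfp36 spans chr7:28376784-28380253 with 2, and Jun, Junb, Jund and Ier2 have 1 exon each. Nr4a1, at 20527 bases and 8 exons, was the longest member.

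Library 1 held 94521010 unique molecular identifiers (UMIs) and library 2 held 95235439. Without doublets, 12030 cells of library 1 and 11655 cells of library 2 were analysed. Barcodes ranged from 1501 to 44696 UMIs in library 1 and from 1501 to 44898 in library 2, and 64 barcode sequences occurred in both. The 10 genes, together with other stress and early genes, were left out when the cells were clustered, so the classes rest on other markers. Clusters were named from fixed marker genes, and a name stands for cells like that type by those markers. Of 28 clusters, 22 were named into 14 classes, from 24 and 36 proliferating cells to 1950 and 1957 fibroblasts in libraries 1 and 2. Each class expressed markers of its own list. In neurons the 15 neuronal markers summed to 13924 CPM in library 1 and 14110 CPM in library 2, and the 10 fibroblast markers, such as Col1a1, to 1487 CPM in library 1, against 51659 CPM in fibroblasts. CPM are UMIs per 1000000 tested UMIs of a class, and for tests the UMIs were summed per class and library into 28 sums. The labels do not say that the libraries came from separate animals. The p-values therefore measure how class differences vary between these libraries, a spread that may be technical.

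Mast cells, blood endothelial cells and fibroblasts carried the most early gene RNA, and neurons and satellite glia, the cells around the neuronal somata, carried little. The 10 genes summed to 27417 CPM in mast cells of library 1 and 22470 CPM in mast cells of library 2, which is 2.74% and 2.25% of all UMIs of these cells. Blood endothelial cells had 10596 and 10974 CPM, fibroblasts 9786 and 10649 CPM, and macrophages 8516 and 8147 CPM. At the other end, satellite glia had 1447 and 1251 CPM, lymphatic endothelial cells 1408 and 1360 CPM, and neurons 1015 and 845 CPM. Summed over all their cells, neurons lay below every other class in both libraries. This did not hold for each neuron cluster: the largest, of 872 shallow cells, had 1571 and 1801 CPM, and the deepest, of 318 cells, 648 and 633 CPM. With each cell thinned to 1500 UMIs, the mean per cell in library 1 was 1.91 UMIs in neurons and 1.78 in the 36 lymphatic endothelial cells. In library 2 the order was the other way, with 1.57 UMIs in neurons and 2.55 in the 29 lymphatic endothelial cells. Between mast cells and neurons the mean sums differed 26.8-fold, while the libraries differed by far less within each of these classes. All 10 members differed among the 14 classes in edgeR's quasi-likelihood test (Benjamini-Hochberg adjusted p under 0.05), but so did 95.4% of the 16595 genes tested, so this count sets the members apart from no other gene.

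**Figure D1:**
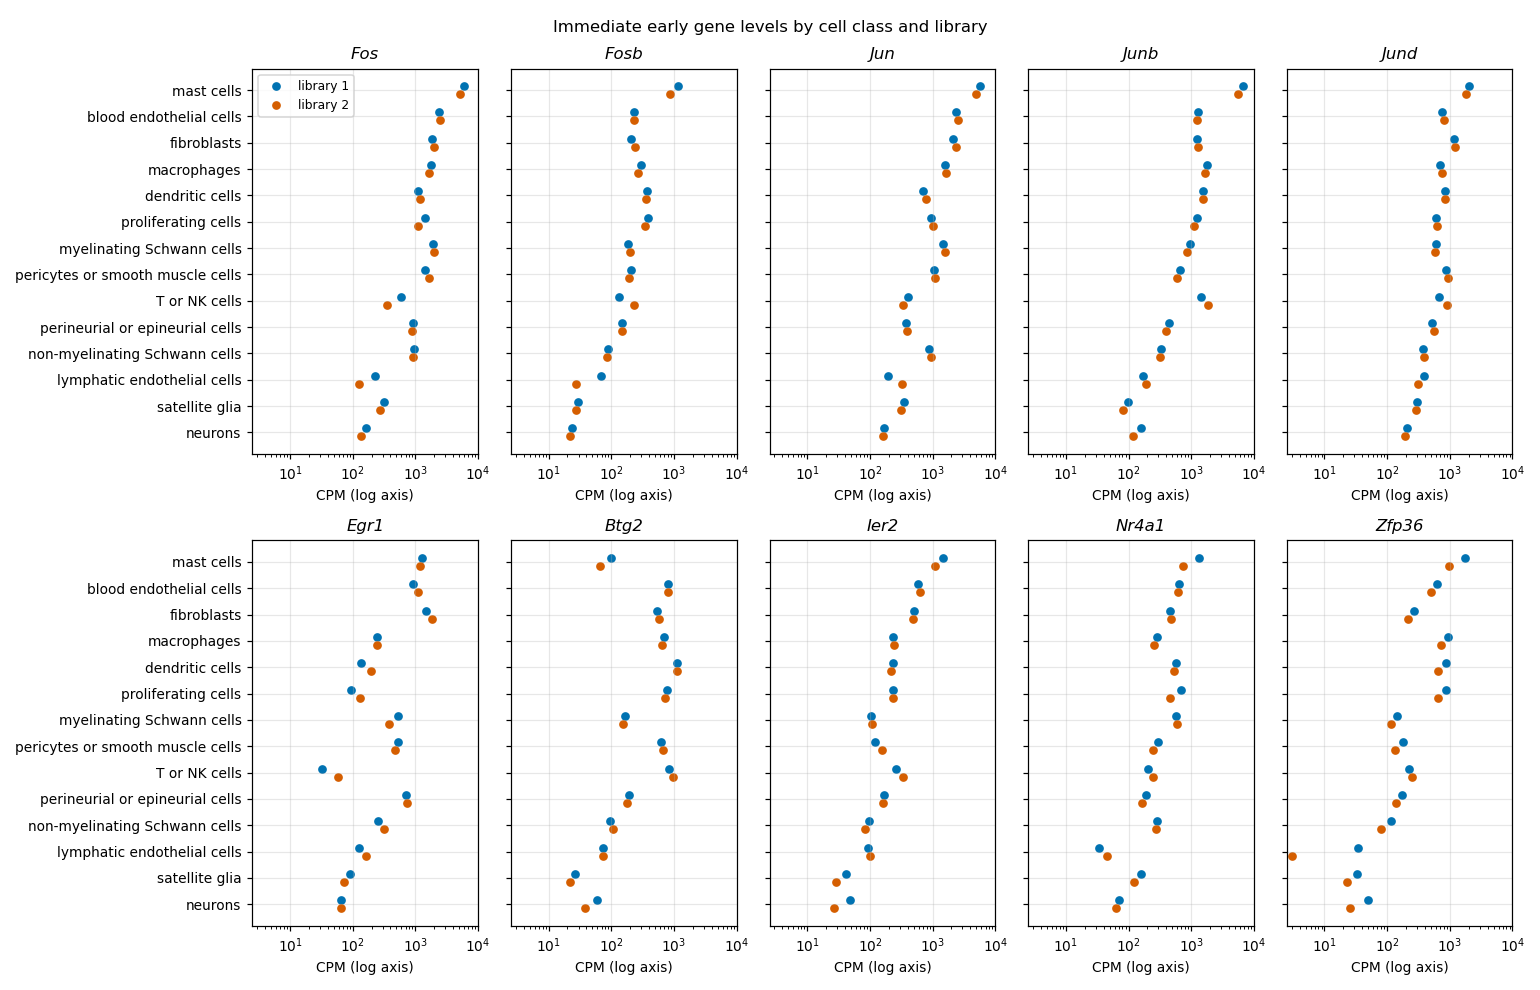
CPM of each member (log axis) in 14 classes, with a point for each library; classes run from the highest to the lowest sum of the 10 genes, and a value of 0 (Zfp36 in lymphatic endothelial cells of library 2) is drawn at 3 CPM. Mast cells lie at the right of 8 panels, Egr1 is highest in fibroblasts and Btg2 in dendritic cells.

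The plot of levels by class shows that the order of classes was not the same for every member. Mast cells ranked highest for 8 members, the exceptions being Egr1 and Btg2. Neurons ranked lowest for Fos, Fosb, Jun and Jund, satellite glia for Junb, Btg2 and Ier2, lymphatic endothelial cells for Nr4a1 and Zfp36, and T or NK cells for Egr1. Each member has 13 pairs of neighbours in its order, and between 5 (Zfp36) and 10 (Junb) of these passed the pairwise test in the direction of the CPM. Most of the others did not pass in either direction. In 5 pairs close in CPM the fit passed in the other direction: Fos in myelinating Schwann cells below fibroblasts (-0.34), Fosb (-0.39) and Nr4a1 (-0.40) in proliferating below dendritic cells, Junb in T or NK cells below dendritic cells (-0.45), and Nr4a1 in non-myelinating Schwann cells below macrophages (-0.18). The test scales the sums by TMM factors (trimmed means of log ratios between sums), so a fitted difference can lie a little apart from the ratio of the CPM.

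Fos, the AP-1 subunit most often read as a mark of recent activation, had 5863 and 5228 CPM in mast cells of libraries 1 and 2. Blood endothelial cells followed with 2394 and 2442 CPM, and the libraries of these classes did not overlap. The difference between mast and blood endothelial cells was 1.05 ± 0.12 on the log2 scale (SE; edgeR quasi-likelihood, adjusted p = 2.1e-12). Myelinating Schwann cells (1882 and 2000 CPM), fibroblasts (1811 and 1977 CPM) and macrophages (1786 and 1679 CPM) came next, and the fit placed fibroblasts above myelinating Schwann cells, against the order of the CPM. Non-myelinating Schwann cells (954 and 932 CPM) and perineurial or epineurial cells (908 and 894 CPM) did not pass as different (adjusted p = 0.982, edgeR quasi-likelihood). Fos was low in satellite glia, at 317 and 269 CPM, and in neurons, at 165 and 136 CPM. Lymphatic endothelial cells, at 229 and 127 CPM from 34 and 14 UMIs, did not pass as different from neurons (adjusted p = 0.849, edgeR quasi-likelihood).

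Fosb, the other Fos protein, had 1173 and 848 CPM in mast cells. Proliferating cells (387 and 343 CPM) and dendritic cells (365 and 355 CPM) followed, and the mast cells were higher than proliferating cells by 1.49 ± 0.16 on the log2 scale (SE; edgeR quasi-likelihood, adjusted p = 3.04e-14). Macrophages had 300 and 271 CPM, below dendritic cells in both libraries. Satellite glia had 29.6 and 27.8 CPM and neurons 23.9 and 22.1 CPM. Fosb was thus counted in few cells of either class, as described with the values per cell.

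Jun, the founding AP-1 subunit, had 5757 and 4933 CPM in mast cells, 2369 and 2579 CPM in blood endothelial cells and 2118 and 2354 CPM in fibroblasts. Blood endothelial cells and fibroblasts did not pass as different (adjusted p = 0.897, edgeR quasi-likelihood). Dendritic cells, at 708 and 780 CPM, stood well below macrophages, at 1553 and 1645 CPM. Perineurial or epineurial cells, the sheath around ganglia and nerves, had 370 and 390 CPM, close to the 344 and 317 CPM of satellite glia. Neurons were lowest, with 166 and 161 CPM.

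Junb had 6712 and 5595 CPM in mast cells and 1782 and 1671 CPM in macrophages, next in the order, a difference of 1.56 ± 0.12 on the log2 scale (SE; edgeR quasi-likelihood, adjusted p = 2.24e-22). T or NK cells, at 1430 and 1849 CPM, and dendritic cells, at 1570 and 1540 CPM, overlapped in CPM. Junb separated more neighbours than any other member, 10 of 13. Neurons had 157 and 119 CPM and satellite glia 99.8 and 81.0 CPM, so here the neurons were the higher of the pair.

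Jund, the Jun protein that is broadly present without stimulation, varied least between classes. Its mean level in mast cells, from 2036 and 1811 CPM, was 9.60-fold that in neurons, from 210 and 191 CPM. For the other 9 members this ratio of the highest to the lowest class ranged from 26.1 (Nr4a1) to 79.8 (Zfp36). Both of these ends are uncertain, because the lowest class was lymphatic endothelial cells. There Nr4a1 had 5 UMIs in each library, and Zfp36 had 5 in library 1 and 0 in library 2. Where neurons were lowest, as for Jund, the ratio was 32.6 for Jun, 36.8 for Fos and 43.9 for Fosb. Fibroblasts had 1146 and 1190 CPM and pericytes or smooth muscle cells 867 and 929 CPM. Satellite glia, at 304 and 287 CPM, and non-myelinating Schwann cells, at 379 and 385 CPM, lay close together.

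Egr1 had its highest level in fibroblasts, at 1484 and 1855 CPM, above the 1299 and 1185 CPM of mast cells. The fit gave 0.70 ± 0.12 on the log2 scale for fibroblasts over mast cells (SE; edgeR quasi-likelihood, adjusted p = 2.1e-07). Mast cells apart, the immune classes lay below the connective tissue and blood vessel classes in Egr1. Perineurial or epineurial cells had 712 and 743 CPM and pericytes or smooth muscle cells 536 and 471 CPM. Macrophages had 248 and 247 CPM and dendritic cells 137 and 197 CPM. Lymphatic endothelial cells, at 128 and 163 CPM, lay below macrophages. T or NK cells had 32.7 and 59.1 CPM and neurons 65.3 and 63.9 CPM, and these did not pass as different (adjusted p = 0.464, edgeR quasi-likelihood).

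Nr4a1 had 1313 and 746 CPM in mast cells and 630 and 620 CPM in blood endothelial cells. Myelinating Schwann cells, with 580 and 604 CPM, came next. Dendritic cells had 580 and 531 CPM, against 288 and 258 CPM in macrophages. Satellite glia had 161 and 122 CPM, neurons 70.5 and 63.2 CPM, and lymphatic endothelial cells 33.7 and 45.3 CPM from 5 UMIs in each library.

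Ier2 had 1446 and 1089 CPM in mast cells, 592 and 633 CPM in blood endothelial cells and 500 and 489 CPM in fibroblasts, and each of these neighbours passed the test. Neurons, at 48.1 and 26.5 CPM, and satellite glia, at 40.9 and 28.9 CPM, overlapped.

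Btg2 followed an order of its own. Dendritic cells were highest, at 1106 and 1107 CPM, followed by T or NK cells, at 833 and 975 CPM, a difference of 0.82 ± 0.12 on the log2 scale (SE; edgeR quasi-likelihood, adjusted p = 3.12e-09). Mast cells, highest for most other members, had 98.3 and 66.2 CPM of Btg2. They did not pass as different from non-myelinating Schwann cells, at 95 and 105 CPM (adjusted p = 0.581, edgeR quasi-likelihood). Neurons had 59.1 and 37.4 CPM, and satellite glia were lowest, at 26.7 and 21.6 CPM.

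Zfp36 had 1720 and 969 CPM in mast cells, 935 and 731 CPM in macrophages and 855 and 653 CPM in dendritic cells. In every class but T or NK cells, its level was higher in library 1 than in library 2. Neurons had 49.6 and 25.2 CPM and satellite glia 32.8 and 22.8 CPM. In lymphatic endothelial cells 5 UMIs were counted in library 1 (33.7 CPM) and 0 in library 2, where a count of 0 allows up to 3 UMIs, or 27.2 CPM, for counting error only.

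Against the mean of the other 13 classes, the members were uniformly high in some classes and uniformly low in others. All 10 were lower in neurons (20.4% of the 16595 genes tested were), and their median log2 fold change was -2.66, against 0.26 over all genes. The range in neurons was from -1.88 for Jund to -3.12 for Fosb, and Fosb (-2.10) did not pass in cells thinned to 1500 UMIs. In satellite glia all 10 were lower as well (13.5% of genes), with a median of -2.11 against 0.18. In lymphatic endothelial cells all 10 were lower too (2.66% of genes), with a median of -2.21 against -0.33. These counts use edgeR's quasi-likelihood test at a Benjamini-Hochberg adjusted p under 0.05.

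All 10 members were higher in blood endothelial cells (29% of genes were), with a median of 1.64 against 0.16 over all genes, and all 10 were higher in fibroblasts (34.9%), with 1.25 against 0.23. In macrophages 9 were higher (27.9%) and Egr1, at 0.05, did not pass. In mast cells 9 were higher (7.17%), by 1.70 for Jund up to 3.28 for Junb, and Btg2 was lower (2.51% of genes), by -1.79 ± 0.30 (SE). In dendritic cells 8 were higher (26.2%), Egr1 was lower (16.1%) and Jun did not pass.

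The other classes were mixed. Pericytes or smooth muscle cells had 6 members higher (23.6% of genes) and 2 lower (11.3%), and proliferating cells 6 higher (16%) and 1 lower, Egr1 (11.4%). Myelinating Schwann cells had 4 higher (12.4%), namely Fos, Jun, Egr1 and Nr4a1, and 3 lower (8.04%), namely Ier2, Btg2 and Zfp36. Non-myelinating Schwann cells had 6 lower (11.7%), and the other 4 did not pass. Perineurial or epineurial cells had Egr1 higher (29.2%) and 5 members lower (12%), among them Jun by -1.21. T or NK cells had Btg2 and Junb higher (8.88%) and Fos, Jun and Egr1 lower (6.12%). In all, 65 of 140 pairs of class and member were higher and 52 were lower.

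Neurons and satellite glia, the classes that lie closest together in the ganglion, differed in most members, and not all in 1 direction. In neurons 6 members were lower than in satellite glia (30.7% of the 16595 genes were) and 2 were higher (34.8%). Nr4a1, at 70.5 and 63.2 CPM in neurons against 161 and 122 CPM in satellite glia, was lower by -1.32 ± 0.11 on the log2 scale (SE; edgeR quasi-likelihood, adjusted p = 2.75e-21). Jun was lower by -1.25 ± 0.13 and Fos by -1.19 ± 0.13, and for both the libraries of the classes did not overlap. Jund (-0.80), Egr1 (-0.57) and Fosb (-0.55) were lower too. Btg2 was higher in neurons by 0.78 ± 0.16 (SE; edgeR quasi-likelihood, adjusted p = 5.47e-06) and Junb by 0.37 ± 0.14 (adjusted p = 0.0129). Ier2 (-0.12) and Zfp36 (0.20) did not pass. The median of the members was -0.56, against 0.10 over all genes. Without the TMM factors that median over all genes was 0.34, Fosb (-0.31) did not pass and Zfp36 (0.44) was higher. The calls of Btg2, Fos, Jun, Jund and Nr4a1 held in all the alternatives with a test, and those of Fosb, Egr1 and Junb did not. With every cell thinned to 1500 UMIs, so that shallow cells count as much as deep ones, Fosb (0.15) and Egr1 (0.23) had the other sign and did not pass, and Zfp36 was higher (0.90). With the neurons of the deepest cluster alone, Zfp36 (-0.77) and Ier2 (-0.76) were lower, Junb (0.06) did not pass and Btg2 was still higher (0.66). Ier2 was also lower at a finer clustering (Leiden resolution 2, -0.52), and Zfp36 was also higher with DESeq2's size factors in edgeR (0.41). The 11 macrophage markers, whose cells are rich in Btg2, Junb and Zfp36, summed to 322 and 91.8 CPM in neurons of libraries 1 and 2, with none at 0. In satellite glia they summed to 48.1 and 39.3 CPM, with 1 at 0 in library 2, and in macrophages to 17454 and 17228 CPM. The part of such RNA in the neuron levels was not tested.

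**Figure D2:**
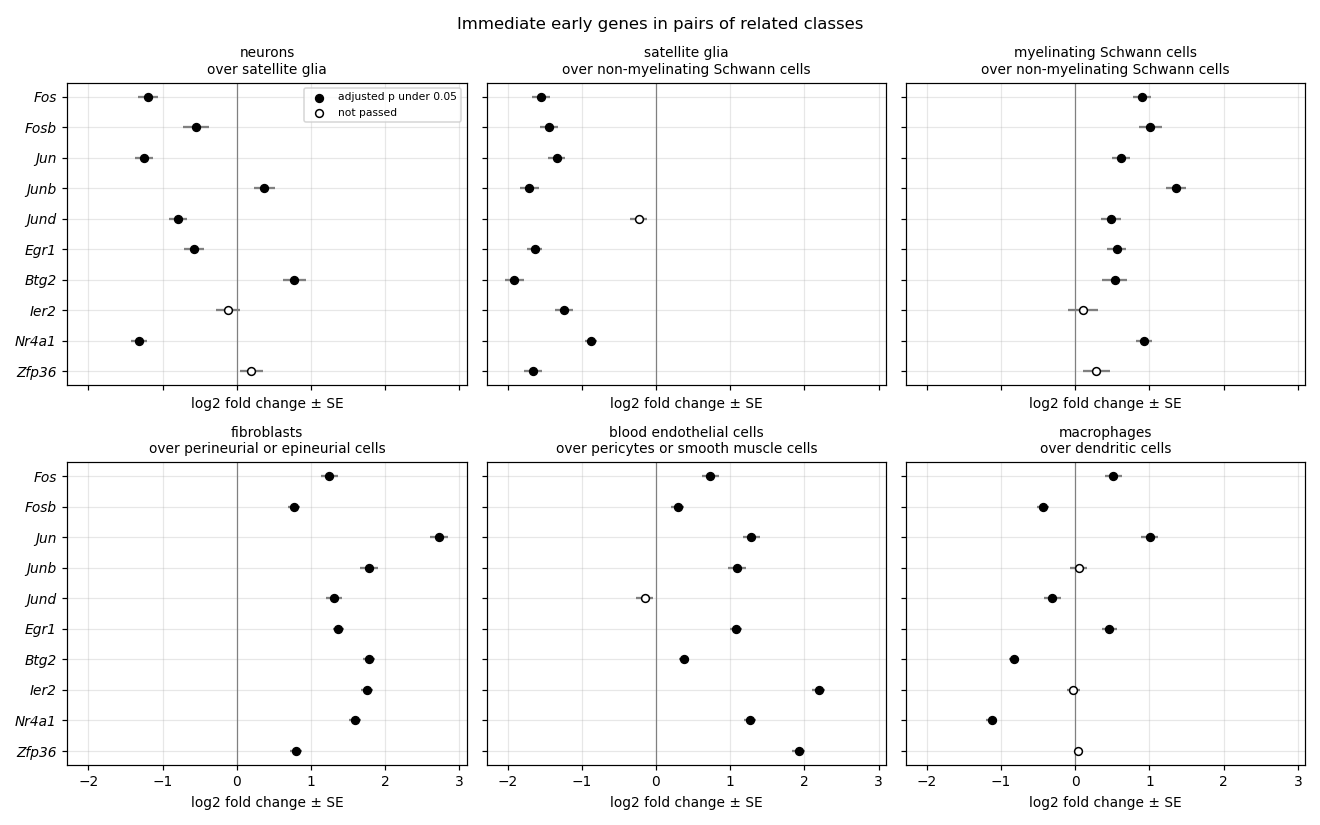
Log2 fold change ± SE of each member in 6 pairs of related classes, first class over second, from edgeR's quasi-likelihood fit over 28 sums; filled points passed at an adjusted p under 0.05. All 10 points lie right of 0 for fibroblasts over perineurial or epineurial cells, and all 10 lie left of 0 for satellite glia over non-myelinating Schwann cells.

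Among the glia, satellite glia had less of the early genes than non-myelinating Schwann cells, which ensheathe thin axons. Of the members 9 were lower in satellite glia (11.5% of genes), with a median log2 fold change of -1.50 against -0.02 over all genes. Btg2 differed most, with 26.7 and 21.6 CPM in satellite glia against 95 and 105 CPM in non-myelinating Schwann cells, a difference of -1.91 ± 0.13 (SE; edgeR quasi-likelihood, adjusted p = 3.75e-27). Egr1 was lower by -1.64, with 90.6 and 72.8 CPM in satellite glia against 249 and 311 CPM in non-myelinating Schwann cells. Jund (-0.23 ± 0.11) did not pass at an adjusted p of 0.131, and it did pass, in the same direction, in 8 of the 11 alternatives that gave a value.

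Myelinating Schwann cells, which wrap single large axons, had more than non-myelinating Schwann cells. Of the members 8 were higher (6.38% of genes), with a median of 0.58 against -0.15 over all genes. Junb differed most, with 955 and 871 CPM in myelinating against 333 and 314 CPM in non-myelinating Schwann cells, or 1.36 ± 0.13 (SE; edgeR quasi-likelihood, adjusted p = 1.69e-16). Fosb (1.01), Nr4a1 (0.92) and Fos (0.90) followed, and Ier2 (0.10) and Zfp36 (0.28) did not pass. At a coarser clustering (Leiden resolution 0.5) Ier2 (1.25) and Zfp36 (1.32) were higher, as was Ier2 with doublets kept (0.52), and Btg2 (0.52) did not pass in cells thinned to 1500 UMIs.

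Fibroblasts had more of all 10 members than perineurial or epineurial cells (20% of genes were higher), with a median of 1.48 against 0.02 over all genes. Jun differed most, at 2118 and 2354 CPM in fibroblasts against 370 and 390 CPM in perineurial or epineurial cells, which is 2.73 ± 0.12 on the log2 scale (SE; edgeR quasi-likelihood, adjusted p = 1.18e-42). Fosb, at 206 and 240 CPM against 151 and 146 CPM, differed least, by 0.77 ± 0.08. No library of the fibroblasts overlapped one of the perineurial or epineurial cells for any member. The share of all genes without such overlap was not counted, so this sets the members apart from no other gene.

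In the vessel wall, 9 members were higher in blood endothelial cells than in pericytes or smooth muscle cells (22.8% of genes were), with a median of 1.08 against 0.00 over all genes. Ier2 was higher by 2.19 ± 0.09, with 592 and 633 CPM in blood endothelial cells against 122 and 159 CPM in pericytes or smooth muscle cells (SE; edgeR quasi-likelihood, adjusted p = 1.41e-45). Zfp36 was higher by 1.92 and Jun by 1.28. Jund, at 748 and 794 CPM against 867 and 929 CPM, gave -0.15 ± 0.11 and did not pass (edgeR quasi-likelihood, adjusted p = 0.295). It was lower in DESeq2 (-0.18) and with cells thinned to 1500 UMIs (-0.39). Fosb (0.26) did not pass in DESeq2.

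The 2 myeloid classes differed more in which members were high than in their sum, 8516 and 8147 CPM in macrophages against 7476 and 7395 CPM in dendritic cells. In macrophages 3 members were higher than in dendritic cells (16.9% of genes) and 4 were lower (16.2%), with a median of 0.01 against 0.09 over all genes. Jun was higher in macrophages by 1.0 ± 0.12, Fos by 0.51 ± 0.12 and Egr1 by 0.46 ± 0.10. Nr4a1 was lower by -1.13 ± 0.08 and Btg2 by -0.82 ± 0.07 (SE; edgeR quasi-likelihood, adjusted p = 1.5e-26 for Nr4a1 and 2.16e-22 for Btg2). Fosb (-0.43) and Jund (-0.31) were lower too, and Junb, Ier2 and Zfp36 did not pass. With doublets kept, where the dendritic class lacked the cells led by Irf8 and Xcr1, 7 members were lower in macrophages, with Junb at -0.30, Zfp36 at -0.55 and Ier2 at -0.27, and Egr1 (0.25) did not pass. Egr1 (0.45) did not pass in DESeq2 either, nor Jund (-0.21) without TMM factors.

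Clusters inside a class also differed in the members. The neurons fell into 3 clusters, and the deepest of them, 318 cells with a median of 21815.5 UMIs, had 648 and 633 CPM of the 10 genes in libraries 1 and 2. The shallowest, 872 cells with a median of 1836.5 UMIs, had 1571 and 1801 CPM. The remaining cluster, 532 cells with a median of 2900.5 UMIs, had 1492 CPM in library 1 and 703 CPM in library 2, the only neuron cluster whose libraries lay far apart. Malat1, a nuclear RNA, had 73822 and 77200 CPM in the deepest cluster and 7618 and 7498 CPM in the shallowest. These differences run with depth and Malat1, and the part of either in the member levels was not tested. With the neurons of the deepest cluster alone, all 10 members were still lower than the mean of the other classes, and 7 were lower than in satellite glia.

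Among pericytes or smooth muscle cells, the cluster led by Rgs5 and Abcc9, pericyte genes, had 7997 and 7274 CPM of the 10 genes. The cluster led by Acta2 and Myh11, contractile smooth muscle genes, had 4788 and 5357 CPM. The gap was wide for Egr1, at 1029 and 754 CPM in the Rgs5 cluster against 250 and 294 CPM in the Acta2 cluster, and for Jun, at 1785 and 1722 CPM against 637 and 669 CPM. Btg2 ran the other way, at 483 and 475 CPM in the Rgs5 cluster against 696 and 787 CPM in the Acta2 cluster. Blood endothelial cells split likewise: the small cluster led by Cldn5, Edn1 and Sema3g had 5822 and 5288 CPM of the 10 genes, and the large one led by Flt1 and Plvap had 10759 and 11254 CPM. In dendritic cells the cluster led by Irf8 and Xcr1 had more Btg2 (1253 and 1158 CPM) than the cluster led by Retnla and Cd209a (993 and 1065 CPM), and less Zfp36 (394 and 335 CPM against 1212 and 916 CPM). These values within classes are descriptions, without a test.

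**Figure D3:**
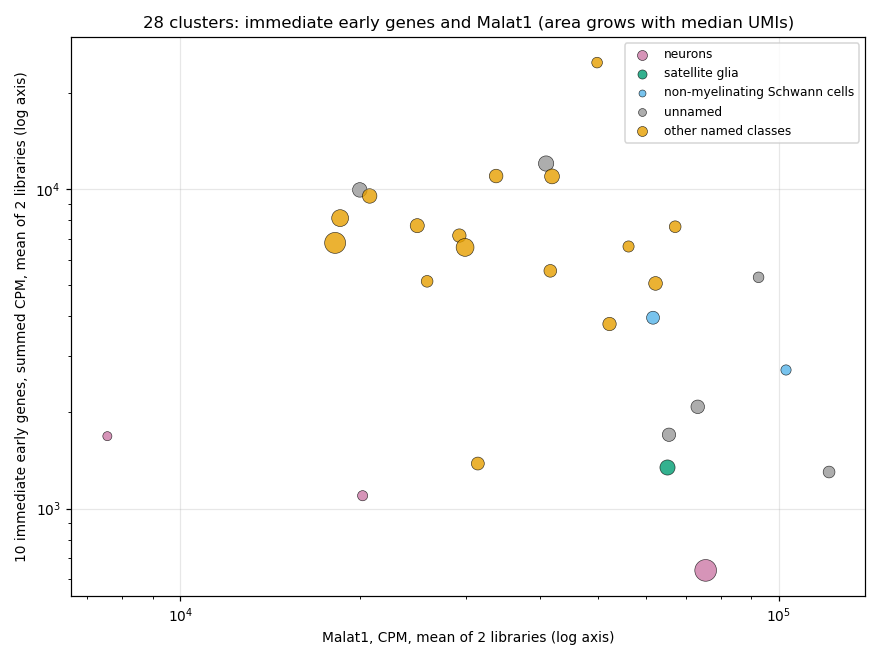
Summed CPM of the 10 genes against CPM of Malat1 (both log axes, means of 2 libraries) in the 28 clusters, with the point area growing with the median UMIs per cell. The neuron clusters spread widely along Malat1 and lie low in the 10 genes, and the mast cell cluster lies highest.

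The plot of clusters against Malat1 shows no single line. Across the 28 clusters, Pearson's r of the summed members was -0.22 with Malat1, 0.08 with the median UMIs per cell and -0.58 with the mitochondrial percent. The members, Malat1 and the median UMIs were taken as logarithms. The mitochondrial percent was that of the summed UMIs of a cluster, as the mean of the libraries. The clusters share libraries, depth and the free RNA of the suspension, so these are descriptions only. The use of intron reads by the submitters is unknown here, and nuclear and cytoplasmic RNA cannot be told apart in these counts.

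Per cell, the early genes were sparse in neurons, satellite glia and lymphatic endothelial cells and more widely counted in the other classes. Every cell was thinned to 1500 UMIs to set the depths equal, and no cell had to be left out. The median cell then had 1 UMI of the 10 genes in neurons and in satellite glia of both libraries, and 10 or 11 in blood endothelial cells, fibroblasts and macrophages. Mast cells had a median of 35.5 UMIs in library 1 and 28.5 in library 2. No UMI of any member was seen in 30.3% (95% exact binomial interval 27.3 to 33.4) of neurons in library 1 and 32.5% (29.4 to 35.8) in library 2. With doublets kept, where the neuron class held 447 and 427 cells in place of 889 and 833, it was 45.9% and 44.7%. In satellite glia this share was 25.9% (23.4 to 28.5) and 27.2% (24.7 to 29.8), in fibroblasts 7.33% and 6.39%, and in blood endothelial cells 3.37% and 3.04%. The intervals cover counting error only.

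**Figure D4:**
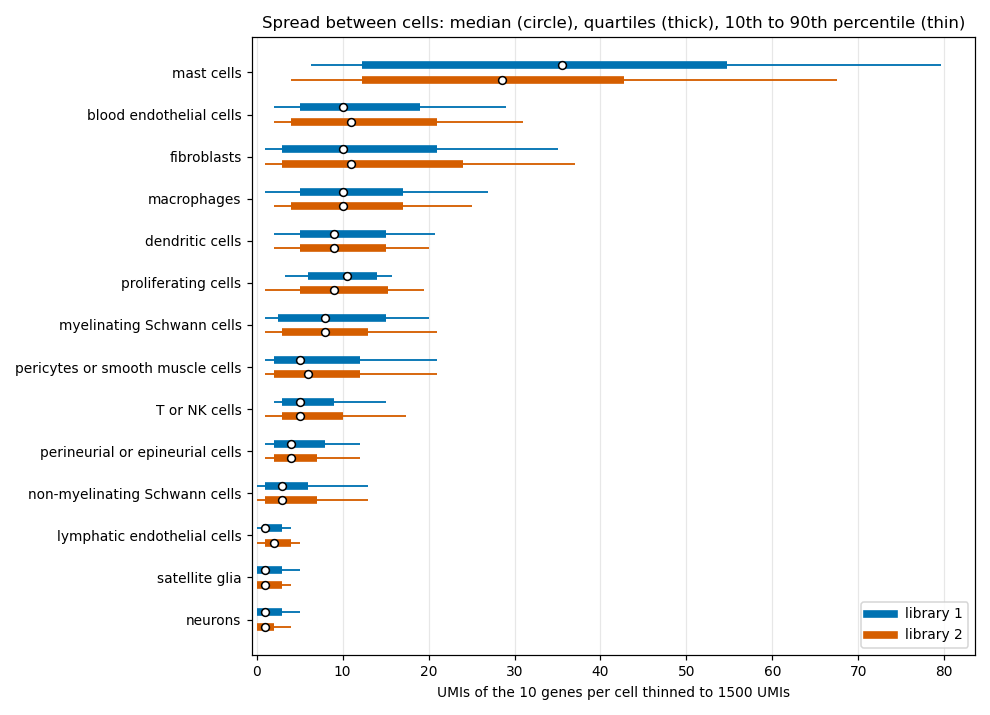
UMIs of the 10 genes per cell after thinning each cell to 1500 UMIs, by class and library: the circle is the median, the thick bar spans the quartiles and the thin line the 10th to 90th percentile. Neurons and satellite glia have medians of 1 in both libraries, and fibroblasts reach from 1 to 35.1 UMIs in library 1.

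Before thinning, the median depth was 2368 and 2413 UMIs in neurons and 9388 and 9458 UMIs in satellite glia, and the thinned shares of their cells with Fos or Fosb were close. Fos was counted in 20.4% and 20.3% of thinned neurons and in 22.7% and 20.0% of satellite glia, against 67.2% and 64.9% of blood endothelial cells. Fosb was counted in 4.05% and 3.36% of neurons and in 2.65% and 3.06% of satellite glia. Jun was counted in fewer neurons (23.7% and 20.5%) than satellite glia (33.0% and 34.3%). No class is known to lack these genes, so free RNA of the suspension could not be read from one. Thinning sets the totals equal and not the part of free RNA, which may differ with the depth before thinning. That part was not tested. Not every share differed between classes by more than its counting error. For cells without a UMI of any member, the library 1 intervals of neurons (27.3% to 33.4%) and satellite glia (23.4% to 28.5%) overlapped. That of blood endothelial cells (2.3% to 4.7%) lay below both.

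Within a class, cells were far more unequal than counting error allows. The spread is given as the coefficient of variation of the 10 genes summed, after the Poisson part is taken out, in cells thinned to 1500 UMIs. Its median over the classes was 0.82. Non-myelinating Schwann cells (1.14 and 1.13), satellite glia (1.07 and 1.15) and neurons (1.06 and 1.32) were the most uneven of the large classes, and dendritic cells (0.63 and 0.61) the least. Fibroblasts, at 0.98 and 0.91, were more uneven than perineurial or epineurial cells, at 0.78 and 0.82. The 10% of cells with the most held 40.4% and 39.8% of the members' UMIs in satellite glia and 39.3% and 39.1% in non-myelinating Schwann cells, against 24.3% and 23.8% in dendritic cells. A neuron with 31 UMIs of the 10 genes among 1500 was seen in library 1 and another with 37 in library 2, although the median neuron had 1.

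The members differed in this spread. Jund was the most even member in fibroblasts (0.89 and 0.78), non-myelinating Schwann cells (0.85 and 1.01) and perineurial or epineurial cells (0.46 and 0.52). Zfp36 in fibroblasts (1.53 and 1.60) and Egr1 in pericytes or smooth muscle cells (1.74 and 1.78) were among the most uneven. Egr1 was less uneven in fibroblasts (1.04 and 1.02), the class where it was highest, than in pericytes or smooth muscle cells. It was still more uneven there than Jund.

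**Figure D5:**
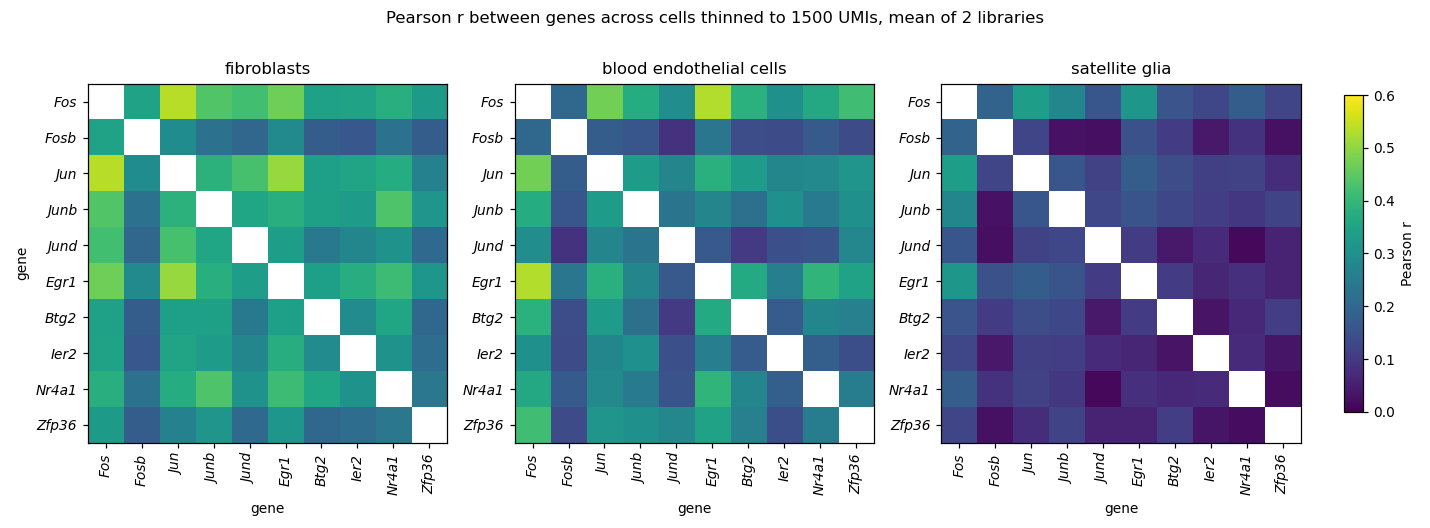
Pearson r between pairs of members across cells thinned to 1500 UMIs, mean of 2 libraries, in fibroblasts, blood endothelial cells and satellite glia (colour scale 0 to 0.6). Fos, Jun and Egr1 form the brightest squares in fibroblasts, Fos with Egr1 in blood endothelial cells, and satellite glia are dark throughout.

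Cells high in a member tended to be high in others. In fibroblasts the median Pearson's r over the pairs of members was 0.34 across 1950 cells of library 1 and 0.31 across 1957 cells of library 2, and in blood endothelial cells it was 0.25 and 0.29. Among the higher pairs were Fos with Jun in fibroblasts (0.52 and 0.55) and Fos with Egr1 in blood endothelial cells (0.51 and 0.55). In dendritic cells Junb with Zfp36 stood at 0.45 and 0.35. In macrophages the pairs of Zfp36 with Fos (0.47 and 0.40) and with Junb (0.43 and 0.41) led. In satellite glia the median was 0.09 and 0.13 and in neurons 0.12 and 0.15, with few UMIs per cell. Thinned to 5000 UMIs, which leaves out shallower cells, it was 0.21 and 0.22 in 1057 and 966 satellite glia, 0.34 and 0.39 in 242 and 196 neurons and 0.46 and 0.41 in 1670 and 1624 fibroblasts. Cells of a library share their suspension and free RNA, and weak values in sparse counts are no finding.

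The genes outside the members that followed their pattern most closely over the 28 sums were ranked among 15174 genes with at least 10 CPM in a sum. Likeness was Pearson's r between log2(CPM + 1) of a gene and the mean standardized level of the members, and neighbouring sums share a library. The closest were Tob2 (r = 0.91), a relative of Btg2 that also binds the CCR4-NOT deadenylase, and Ppp1r10 (0.90), a nuclear subunit of protein phosphatase 1. Hspa1b (0.88), Dnajb1 (0.86) and Hspa1a (0.84) are heat shock chaperones, and Per1 (0.86) encodes a clock protein. Tra2b (0.86), Ifrd1 (0.86) and Gm26887 (0.85) were also among the 10 closest. Of the members themselves Fosb followed the mean best (0.96), while Egr1 (0.67) and Btg2 (0.64) followed it least. Each member is part of that mean, which raises its r beside that of genes outside the members.

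Other genes of the early response moved much as the members did in neurons and satellite glia. Of 29 feedback regulators, such as the MAP kinase phosphatases, 24 were lower in neurons than in the mean of the other classes (20.4% of all genes were) and 1 was higher (37.5% of all genes), with a median log2 fold change of -2.41 against 0.26 over all genes. Of 20 tested other early transcription factors 12 were lower and 1 was higher, with a median of -2.22. Of 14 heat shock genes 12 were lower in neurons and 2 did not pass, with a median of -0.81. In satellite glia 21 feedback regulators were lower (13.5% of all genes were) and 5 were higher (34% of all genes), 11 of the early transcription factors were lower and 9 did not pass, and 13 heat shock genes were lower and 1 did not pass. In blood endothelial cells 25 feedback regulators and 16 of the early transcription factors were higher (29% of all genes were), and the other 4 of each list did not pass.

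Set directly against satellite glia, neurons differed gene by gene in these lists. Of the 20 other early transcription factors 7 were higher (34.8% of all genes were) and 5 lower (30.7%), shares near those over all genes. Those with the largest differences were Batf3 (5.61 ± 1.11, SE), Npas4 (5.10 ± 0.61), an activity-dependent factor of neurons, Arc (2.47 ± 0.63), a synaptic early gene, and Nr4a2 (-1.88 ± 0.20), a relative of Nr4a1. Of the feedback regulators 7 were higher and 14 lower, led by Trib1 (-3.56 ± 0.27), Dusp4 (-3.52 ± 0.56), Zfp36l1 (-2.89 ± 0.11), a relative of Zfp36, and Dusp5 (2.79 ± 0.65). Of the heat shock genes 5 were higher and 5 lower, among them Hspa1a (-1.41 ± 0.15), Hspb1 (1.27 ± 0.13), Hspa1b (-0.89 ± 0.14) and Bag3 (0.83 ± 0.12).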

How the data were processed

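Both libraries were made with 10x Genomics 3' v3.1 chemistry per the labels' protocols. The deposited values are raw UMI counts per gene and cell. Per the submitters' processing notes, Cell Ranger 6.1.2 and the build mm10 were used. Their annotation, cell filters and use of intron reads are not stated there. All 10 members were named; the members, lists and markers were chosen with earlier results of these data known.

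Cells with at least 500 genes, 1000 UMIs and at most 20% mitochondrial UMIs were kept, and the Scrublet method in scanpy 1.11.5 removed 564 doublets (4.48%) from library 1 and 624 (5.08%) from library 2. UMIs were split at random with probability 0.5, the first part for clustering and naming and the second for levels and tests. Clustering used 3000 variable genes without the members, the other gene lists, mitochondrial, ribosomal, haemoglobin and sex-linked genes, then 30 principal components, 15 neighbours and Leiden clusters at resolution 1 (leidenalg 0.10.2), the libraries being left unintegrated. A cluster took the class whose markers led it, by at least 3 markers and a margin of 0.5 (log2) over the next class; this margin was chosen after seeing the data. Doublets can remain.

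Sums per class and library were filtered by filterByExpr, scaled by TMM and tested with edgeR 4.0.16 (R 4.3.3), with library as the block and 13 residual degrees of freedom. The spread of each gene was moderated towards that of all genes, with a median of 105.6 prior degrees of freedom. The p-values thus rest largely on spread shared across genes. The fit held 14 classes, each with at least 20 cells in each library, and p-values were adjusted by Benjamini-Hochberg over the 16595 genes tested within a contrast. In data simulated for neurons against satellite glia over 15253 genes, the test recovered 98% of 4-fold and 46% of 2-fold changes. The simulated spread was set by hand and was wider than in the real fit, whose common biological coefficient of variation was 0.0319. The simulated classes also shared 1 mean profile apart from the changed genes. These shares therefore do not measure the power of the test in the real sums. Outside the members, the genes named are those among the 10 most alike, of which 1 is not reported here, and, per list, the 4 that passed with the largest differences between neurons and satellite glia. Alternatives were DESeq2 1.42.0, other scaling, filters, clusterings and depths, and each library left out.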

Additional observations from a re-analysis of the deposited data

How the results depend on the processing

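With the library as a block, 65 pairs of class and member were higher and 52 lower; without the block, 64 were higher and 50 lower, and the block changed no count of members by over 1.5 times. All 10 members differed among the classes in the 12 alternatives that recomputed this count. In neurons against the mean of the other classes 10 were lower in 11 of 12 alternatives and 9 with cells thinned to 1500 UMIs. In neurons over satellite glia 1 member was higher, in place of 2, with no filter on low counts, at Leiden resolution 2 and with neurons of the deepest cluster only. In blood endothelial cells over pericytes or smooth muscle cells 1 member was lower, in place of 0, in DESeq2 and with cells thinned to 1500 UMIs. In macrophages over dendritic cells 7 were lower, in place of 4, with doublets kept.

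The median spread between cells of a class, 0.82, was 0.709 at 5000 UMIs, 1.13 without thinning, 0.838 with doublets kept and 0.812 to 0.83 with a library left out; the cause was not tested. Of single log2 fold changes, neurons over satellite glia reversed for Fosb (0.154) and Egr1 (0.227) in cells thinned to 1500 UMIs, where neither passed, and for Zfp36 (-0.774) with neurons of the deepest cluster only, and macrophages over dendritic cells reversed for Junb (-0.304) and Zfp36 (-0.547) with doublets kept. Leiden resolution 0.5 gave no satellite glia class and so no value there. A single library gives no residual degrees of freedom, so leaving a library out gave values without a test. Without TMM factors the median over all genes for satellite glia over non-myelinating Schwann cells was -0.152 (-0.019 with them), for fibroblasts over perineurial or epineurial cells -0.145 (0.02), for myelinating over non-myelinating Schwann cells -0.016 (-0.151), for macrophages over dendritic cells 0.19 (0.089) and for neurons over the mean of the other classes 0.402 (0.259). The deepest-cluster and no-TMM alternatives were chosen after seeing the data. Members at a few UMIs per cell, and classes under 100 cells per library, carry the widest errors.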

Other observations

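6 clusters of 28 took no class name and entered no comparison, and the 10 genes were read there as values only. The largest, 2265 cells led by Gm31356 and Fras1 whose markers lay between the glial classes, had 1338 and 1265 CPM of the 10 genes in libraries 1 and 2, next to 1447 and 1251 CPM in satellite glia. A cluster of 962 cells led by interferon response genes such as Ifit3 and Isg15, also between the glial classes, had 2188 and 1979 CPM, with Fos at 567 and 480 CPM. A cluster of 143 cells led by Nt5c1a and Slc6a2, the noradrenaline transporter, had 1628 and 1779 CPM. A cluster of 147 cells with Ifit3 and Plac8 among its leading genes had 12195 and 11896 CPM, with Jun at 3262 and 2820 CPM and Egr1 at 1892 and 2112 CPM. A cluster of 120 cells led by Folr2 and Lyve1 had 9836 and 10083 CPM, with Zfp36 at 1435 and 1083 CPM. A cluster of 475 cells led by Fat3 and Egfros had 5570 and 5032 CPM, with Egr1 at 1055 and 911 CPM and Fos at 543 and 521 CPM.

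Of 23 kinases and factors upstream of the members, 12 were higher and 3 lower in blood endothelial cells than in the mean of the other classes (29% of all genes were higher). In satellite glia 1 was higher (34% of all genes were) and 13 were lower (13.5%). In neurons 8 were higher (37.5% of all genes were) and 11 lower (20.4%), and in fibroblasts 5 were higher (34.9%) and 8 lower. The share of all genes that were lower is not given here for blood endothelial cells and fibroblasts. Set against satellite glia, 10 were higher (34.8% of all genes were) and 5 lower (30.7%) in neurons, with a median log2 fold change of 0.24 against 0.10 over all genes. Mapk8 (1.33 ± 0.13, SE), Elk3 (1.04 ± 0.19) and Crtc1 (1.03 ± 0.21) were higher and Atf1 (-1.02 ± 0.17) lower. Across the 28 sums Mapk9 (r = -0.56), Crtc1 (-0.55) and Mapk3 (-0.53) ran against the mean level of the members. A further list held 14 messages known as targets of Zfp36, most of them of cytokines. Of these, 7 were higher and 1 was lower in neurons than in satellite glia (34.8% and 30.7% of all genes). They were led by Ccl7 (2.75 ± 0.40), Ccl3 (2.14 ± 0.82), Tnf (1.60 ± 0.59) and Il1b (1.51 ± 0.40). Zfp36 itself did not pass in this pair. The 11 macrophage markers summed to 322 and 91.8 CPM in neurons of libraries 1 and 2, against 48.1 and 39.3 CPM in satellite glia, and their part in these cytokine values was not tested.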
